A study of Mus musculus with 6 samples.

Results

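The genes examined here carry the signal of type I interferons from the cell surface to the nucleus: the receptor chains Ifnar1 and Ifnar2, the kinases Jak1 and Tyk2, the transcription factors Stat2, Irf9, Irf1 and Irf7, and the inhibitor Socs1. These 9 genes were chosen by symbol, with earlier results of these data known. All 9 were found among the 24728 gene symbols of the expression table. They were compared between cultured mouse female germline stem cells (FGSCs) with 3 control samples and FGSCs after knockdown of CTCF, a DNA-binding protein that shapes chromatin loops, with 3 samples (shCTCF). All cells were of strain C57BL/6 per the labels, had been passaged more than 20 times and were kept on inactivated STO fibroblast feeders. The line came from neonatal ovaries of Ddx4-Cre; mT/mG mice, in which the germ cell gene Ddx4 drives Cre, and 1 shRNA sequence was delivered to the shCTCF group by lentivirus and followed by puromycin selection. Whether the control cells received a virus or puromycin is not given in the sources used here, so the knockdown and the infection cannot be told apart. Nothing states that the replicates were separate cultures, so p-values measure the spread between these samples, which may be technical.

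In this pathway, an interferon outside the cell joins IFNAR1 and IFNAR2, and the kinases TYK2 and JAK1 bound to these chains then phosphorylate STAT proteins. STAT2 enters the complex ISGF3 with IRF9, which binds DNA at interferon-stimulated response elements (ISRE), while STAT dimers bind at gamma-activated sequences (GAS). IRF1 and IRF7 are transcription factors that are themselves induced by this signalling and extend it, and SOCS1 inhibits the JAK kinases. Hematopoietic and stromal cells are both known to respond in this way, whereas pluripotent cells are known for a weak response.

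The promoters of 4 members are shown because these genes rose in the shCTCF group and differ in the binding elements near their start. The sequences are the 250 bases before the start, from RefSeq on build GRCm38.p6, written 5′ to 3′ along the gene, with each match to an element in capitals. They lie at chr10:128270248-128270497 (+) for Stat2, chr16:10785537-10785786 (-) for Socs1, chr11:53769764-53770013 (+) for the upstream start of Irf1 and chr7:141266425-141266674 (-) for Irf7.
Stat2: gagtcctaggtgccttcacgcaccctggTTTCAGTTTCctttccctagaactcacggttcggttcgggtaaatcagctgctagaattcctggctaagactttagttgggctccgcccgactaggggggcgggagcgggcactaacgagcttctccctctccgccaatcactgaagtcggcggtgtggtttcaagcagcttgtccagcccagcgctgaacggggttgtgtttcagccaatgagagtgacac
Socs1: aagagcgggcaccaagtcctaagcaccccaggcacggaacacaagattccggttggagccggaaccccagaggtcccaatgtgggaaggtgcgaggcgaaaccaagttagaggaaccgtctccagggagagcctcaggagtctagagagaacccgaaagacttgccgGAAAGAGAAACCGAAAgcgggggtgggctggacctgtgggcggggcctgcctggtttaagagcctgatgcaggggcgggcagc
Irf1: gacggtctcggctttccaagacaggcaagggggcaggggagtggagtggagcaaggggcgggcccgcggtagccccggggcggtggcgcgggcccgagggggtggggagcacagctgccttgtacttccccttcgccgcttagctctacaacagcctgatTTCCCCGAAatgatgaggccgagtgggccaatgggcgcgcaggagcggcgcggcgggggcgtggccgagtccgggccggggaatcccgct
Irf7: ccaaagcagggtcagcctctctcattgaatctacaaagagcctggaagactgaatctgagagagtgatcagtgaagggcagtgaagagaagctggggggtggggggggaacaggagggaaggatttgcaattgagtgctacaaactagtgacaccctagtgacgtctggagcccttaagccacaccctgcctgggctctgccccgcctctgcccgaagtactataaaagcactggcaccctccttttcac
The ISRE core was searched on both strands as 2 copies of GAAA with any 2 bases between them, and GAS as TTC and GAA with any 3 bases between them, which reads the same on both strands. Stat2 had 1 ISRE core on the reverse strand, 222 to 213 bases before the start. Socs1 had 2 overlapping ISRE cores, which together ran from 83 to 68 bases before the start. The upstream start of Irf1 had 1 GAS, 90 to 82 bases before it, and Ifnar2 had 1 GAS, 214 to 206 bases before its start. Irf7, Irf9, Jak1, Tyk2 and Ifnar1 had no match of either kind in this window. An ISRE core was present in 3.46% of the 27025 genes with a promoter sequence and GAS in 8.13%, compared with 2 of 9 members for each. Among 9 known ISGF3 target genes with a promoter sequence, 6 had an ISRE core (Ifit1, Ifit3, Isg15, Rsad2, Cxcl10 and Bst2). A match is a description of letters and not of binding.

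The targeted gene Ctcf had 58.2, 56.1 and 53.5 FPKM (fragments scaled to transcript length and to the number of mapped fragments) in the controls and 0.74, 0.55 and 0.629 FPKM in the shCTCF samples. It had 0 counts in every sample, as its annotated transcripts share almost all exon bases and shared fragments were not counted. The drop of Ctcf was therefore read on FPKM only. Total counts lay between 1686052 and 7044272 fragments, with the smallest library in control replicate 2. Of 8 germline markers, 7 stayed under 1 FPKM in every sample, among them Ddx4, Dazl and Pou5f1 (0 FPKM in the controls) and with the exception of Ifitm3, itself known as interferon-inducible, so that the germline identity of the label was not seen in these markers. All 7 leukocyte markers were expressed instead, and their summed level was 729 to 773 FPKM in the controls and 1089 to 1125 FPKM in the shCTCF samples (3 were higher, 1 was lower and 3 did not pass the test). The mast cell markers summed to 832 to 887 and 940 to 998 FPKM, with members in opposite directions. Hdc went from 4.25 to 87.2 FPKM in the mean and Kit from 575 to 787 FPKM, while Cpa3 went from 281 to 88.0 FPKM, all past the threshold in limma, and Fcer1a was at 0 and Ms4a2 and Tpsb2 were under 1 FPKM in all samples. The macrophage and dendritic cell markers summed to 98.5 to 107.7 and 195 to 229 FPKM, where Cd68 and Adgre1 were higher, the other 5 stayed under 1 FPKM and Siglech was at 0 in all samples. T, B and NK cell markers did not exceed a sum of 0.135 FPKM in any sample. The 8 fibroblast markers summed to 10.01 to 10.8 and 8.24 to 8.61 FPKM, with Col3a1 and Lum at 0. Of these, Pdgfra and Thy1 were higher (log2 fold change 1.31 and 1.14), Pdgfrb and Dcn were lower (-1.16 and -1.89), and Dcn was listed at 0 in the shCTCF samples. Thy1 reached the mean of 1 FPKM needed for the test only through the shCTCF group, and Dcn only through the controls. For both genes being tested and the direction are tied. Among all genes tested in limma, 73% passed the threshold, 28.8% as higher and 44.2% as lower in shCTCF. The part of these marker differences in the results below was not tested. In bulk samples, fewer cells of a type and less RNA per cell cannot be told apart.

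The first comparison asked which of the 9 genes changed with the knockdown. After knockdown 7 of them rose and 0 fell, at an adjusted p under 0.05 in limma (two-sided, adjusted over all 9974 genes tested on log2(FPKM + 1)). The background was high, since 73% of all genes tested passed this threshold, 28.8% as higher and 44.2% as lower in shCTCF. Of the 9 members, 5 (Stat2, Irf9, Irf1, Irf7 and Socs1) were at least 2-fold higher, compared with 11.3% of all genes tested. The members were chosen with earlier results of these data known, so these shares describe the set and are no test of it. All 9 passed the filter of a mean of 1 FPKM, Irf7 only through its level in the shCTCF group. The median log2 fold change of the members was 1.23, compared with -0.17 for all genes tested. For 7 members the values of the groups did not overlap, all of them higher in shCTCF, compared with 76.6% of all genes tested in either direction and 30.8% as higher. The share of higher genes among all genes past the threshold was 39.5%, and scaling of all samples to a common median gave 49.1%.

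**Figure D1:**
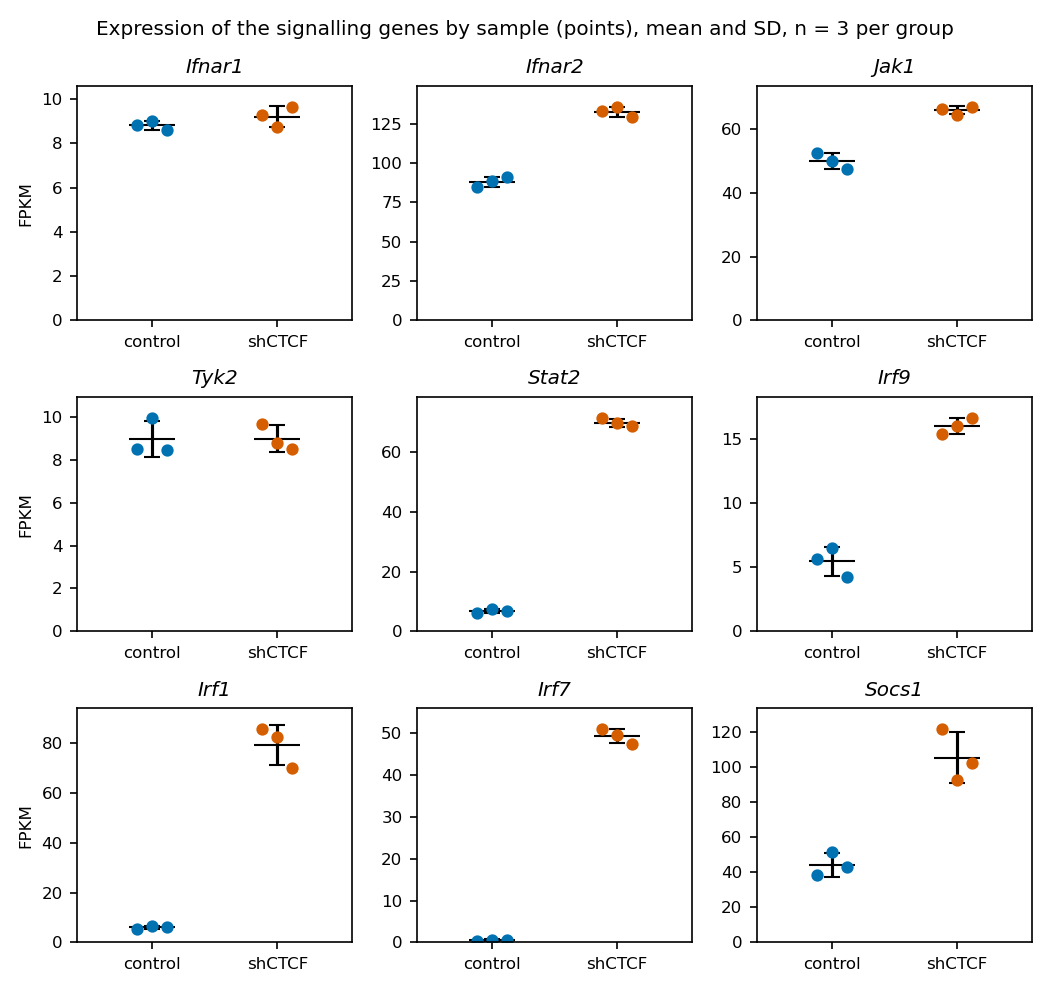
FPKM of the 9 signalling genes in each sample (points) of the control and shCTCF groups, with the mean (line) and SD (bar) of 3 samples, on linear axes that start at 0. Ifnar1 and Tyk2 overlap between the groups, and Irf7 rises from under 1 FPKM to between 47.3 and 50.9 FPKM.

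No interferon mRNA was seen in these libraries. The list held 21 ligands, with Ifnb1, the Ifna genes, Ifnab, Ifne, Ifnk, Ifnz, Ifng, Ifnl2 and Ifnl3, and all 21 were listed at 0 FPKM and had 0 counts in all 6 samples. A count of 0 allows up to 3 counts in a library, or 0.426 to 1.78 CPM (counts scaled to the library total). This limit covers counting error only, and not fragments left out of the counts because they overlap several annotated transcripts. Irf7, for example, had 0 counts in all samples but up to 50.9 FPKM. Protein in the medium was not measured.

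Of the receptor chains, Ifnar2 rose and Ifnar1 did not pass the test on FPKM. Ifnar1, the chain that binds TYK2, had 8.84, 9.01 and 8.61 FPKM in the controls and 9.28, 8.72 and 9.63 FPKM in the shCTCF samples. These values overlapped between the groups, with means of 8.82 ± 0.202 and 9.21 ± 0.46 FPKM (SD, n = 3 each). The log2 fold change of Ifnar1 was 0.06 with a 95% confidence interval of -0.13 to 0.24 and a limma adjusted p of 0.558. This depended on scaling, since with a common median for all samples it was 0.22 with a limma adjusted p of 0.0402. Relative to the median of all genes it was 0.23 higher on the log2 scale.

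Ifnar2, the chain that binds JAK1, had 84.9, 88.5 and 90.9 FPKM in the controls and 132.9, 135.5 and 129.2 FPKM in the shCTCF samples. All shCTCF values lay above all control values. The ratio of the means was 1.504, and the log2 fold change was 0.58 ± 0.06 (SE, limma adjusted p 4.93e-05).

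Of the kinases, Jak1 rose and Tyk2 did not pass the test. Jak1 had 52.5, 49.97 and 47.5 FPKM in the controls and 66.3, 64.4 and 66.8 FPKM in the shCTCF samples, without overlap. The ratio of its means was 1.32, and the log2 fold change was 0.39 ± 0.06 (SE, limma adjusted p 0.000816). The exons of Jak1 overlap those of Raver2, which was listed at 0 FPKM in all samples. Tyk2 had 8.49, 9.93 and 8.46 FPKM in the controls and 9.68, 8.77 and 8.48 FPKM in the shCTCF samples. The groups overlapped, and its log2 fold change was 0.0034 with a 95% confidence interval of -0.22 to 0.23 and a limma adjusted p of 0.978.

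Stat2 and Irf9, the subunits of ISGF3 among the members, both rose. Stat2, the subunit of ISGF3 with the main activation domain, had 6.02, 7.34 and 6.81 FPKM in the controls and 71.3, 69.6 and 68.7 FPKM in the shCTCF samples. The means of 6.73 ± 0.666 and 69.9 ± 1.32 FPKM (SD, n = 3 each) differed 10.4-fold, and the log2 fold change was 3.20 ± 0.08 (SE, limma adjusted p 7.29e-08). Irf9, which gives ISGF3 its contact with the ISRE, had 5.65, 6.48 and 4.23 FPKM in the controls and 15.4, 16.01 and 16.6 FPKM in the shCTCF samples. The groups were apart here too, with a ratio of means of 2.93 and a log2 fold change of 1.41 ± 0.13 (SE, limma adjusted p 3.93e-05).

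Stat2 was compared with Irf9 by the ratio of FPKM. Relative to Irf9, Stat2 stood at 1.07, 1.13 and 1.61 across control replicates against 4.63, 4.35 and 4.14 across shCTCF replicates. The ratio did not overlap between the groups and was given no test.

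The interferon-induced factors Irf1 and Irf7 rose most among the 9 genes. Irf1, which activates genes of antigen presentation and antiviral defence, had 5.43, 6.42 and 6.22 FPKM in the controls and 85.7, 82.5 and 70.3 FPKM in the shCTCF samples. Every shCTCF sample was far above every control, and shCTCF replicate 3 was the lowest of its group. The means of 6.02 ± 0.521 and 79.5 ± 8.13 FPKM (SD, n = 3 each) differed 13.2-fold, and the log2 fold change was 3.52 ± 0.10 (SE, limma adjusted p 1.06e-07). Irf7, the main factor for the induction of interferon-alpha genes, was nearly absent in the controls with 0.36, 0.615 and 0.654 FPKM. It had 50.9, 49.5 and 47.3 FPKM in the shCTCF samples. The log2 fold change of Irf7 was 5.03 ± 0.10 (SE, limma adjusted p 2.21e-08). The added 1 FPKM makes this value too small for a gene this low. With a pseudocount of 0.01 it was 6.52, and the ratio of the means was 90.7. Among all genes tested, 99.7% had a log2 fold change at or below that of Irf7 and 98.7% at or below that of Stat2, with Irf1 between them.

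The inhibitor Socs1 was already expressed in the controls, with 38.4, 51.7 and 42.8 FPKM, and had 121.6, 92.6 and 102.2 FPKM in the shCTCF samples. The groups did not overlap, although Socs1 had the largest SD in FPKM of the 9 genes in both (44.3 ± 6.78 and 105.5 ± 14.8 FPKM, SD, n = 3 each). The ratio of means was 2.38, and the log2 fold change was 1.23 ± 0.13 (SE, limma adjusted p 7.99e-05).

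**Figure D2:**
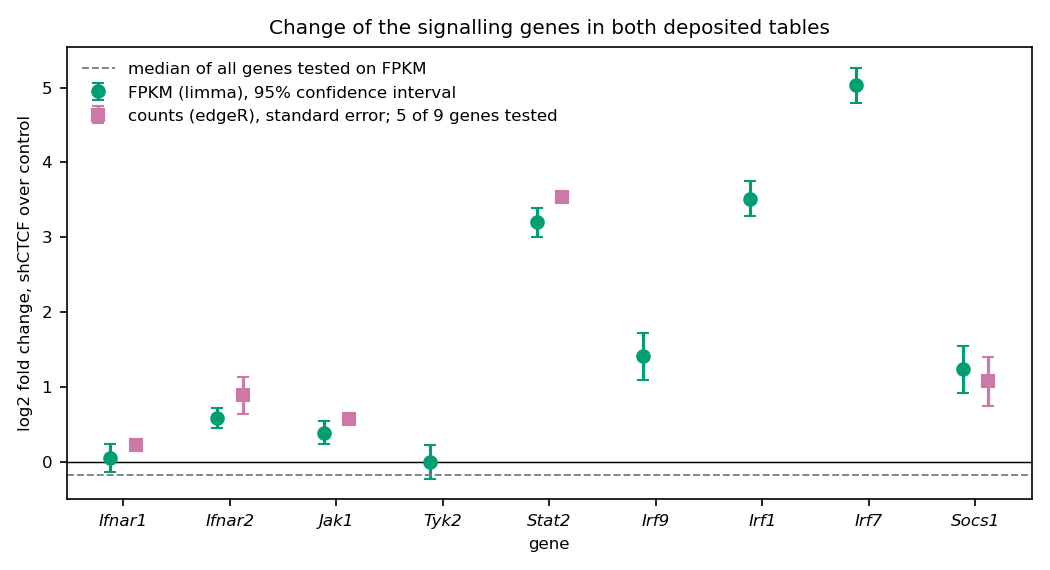
Log2 fold change (shCTCF over control) of the 9 genes from FPKM (circles, 95% confidence interval) and from counts (squares, standard error, 5 genes tested). The dashed line is the median of all genes tested on FPKM, -0.17, and the values run from 0.0034 for Tyk2 to 5.03 for Irf7.

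The order of the 9 genes by FPKM, which is a level per transcript length, also differed between the groups. In the controls it was Ifnar2, Jak1, Socs1, Tyk2, Ifnar1, Stat2, Irf1, Irf9 and Irf7. The ranges of the neighbours Jak1 and Socs1, Tyk2 and Ifnar1, Stat2 and Irf1, and Irf1 and Irf9 overlapped. In the shCTCF samples the order was Ifnar2, Socs1, Irf1, Stat2, Jak1, Irf7, Irf9, Ifnar1 and Tyk2, and the ranges of Irf1 and Stat2 and those of Ifnar1 and Tyk2 overlapped. Among all genes tested, the level of Irf7 moved from percentile 2.34 in the controls to percentile 85.0 in the shCTCF group, that of Irf1 from 26.1 to 91.0 and that of Stat2 from 28.8 to 89.6. Ifnar1 was at percentile 35.7 and 40.7 and Tyk2 at 36.04 and 39.7.

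The deposited count table gave a second reading for 5 of the 9 genes. This table leaves out fragments shared by exons of several transcript accessions, so genes whose accessions overlap keep few counts. Irf7 had 0 counts in all 6 samples, and no exon base of its 3 accessions was free of another accession. Tyk2, Irf9 and Irf1 had at most 8 counts in any sample and were not tested. The 5 tested genes were all higher in the shCTCF group in edgeR (quasi-likelihood test, adjusted over 7339 genes), where 69.1% of all genes tested were called and 34.8% were called higher. Their values did not overlap between the groups after TMM normalization, as for 71.3% of all genes tested in either direction and 36.2% as higher.

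Stat2 has 1 accession and no overlapping gene, and it had 357, 105 and 409 counts across control replicates against 3554, 3148 and 3999 across shCTCF replicates. Its level after normalization was 55.3 ± 3.47 CPM in the control and 636 ± 15.1 CPM in the shCTCF group (SD, n = 3 each), and the log2 fold change was 3.54 ± 0.08 (SE, edgeR adjusted p 8.55e-12). Jak1 had 3405, 846 and 3306 counts across control replicates against 3871, 3433 and 4540 across shCTCF replicates. This gave a log2 fold change of 0.58 ± 0.07 (SE, edgeR adjusted p 8.53e-06). Ifnar1 had 742, 191 and 766 counts across control replicates against 686, 587 and 830 across shCTCF replicates. On counts Ifnar1 passed the threshold, and its log2 fold change was 0.23 (edgeR adjusted p 0.0214), and this call was lost with scaling by library size only (0.06, adjusted p 0.508) and without control replicate 3 (adjusted p 0.0768) or shCTCF replicate 1 (0.0597) or 3 (0.0819).

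Ifnar2 and Socs1 kept few counts. Ifnar2 had 29, 4 and 35 counts across control replicates against 41, 40 and 49 across shCTCF replicates, and its log2 fold change was 0.89 (edgeR adjusted p 0.00693). Socs1 had 13, 9 and 22 counts across control replicates against 32, 33 and 35 across shCTCF replicates, and its log2 fold change was 1.08 (edgeR adjusted p 0.0104). The call of Socs1 on counts was lost without control replicate 1 (0.77, adjusted p 0.0662).

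The FPKM table also gives each annotated transcript, and several genes were carried by one of them. Ifnar2 (mm9 chromosome 16, 91373028 to 91405834) is known in the mouse to give a membrane receptor and a soluble one from different transcripts. The shorter accession NM_001110498, with 7 exons and 1169 bases, held 89.6% to 93.9% of the FPKM of Ifnar2 in every sample. It had 78.2, 79.4 and 83.9 FPKM in the controls and 124.9, 126.2 and 119.6 FPKM in the shCTCF samples. The long accession NM_010509, with 9 exons and 3045 bases, had 6.77, 0 and 7.01 FPKM in the controls and 8.05, 9.30 and 9.57 FPKM in the shCTCF samples. In control replicate 2 the long form was given to another accession, NM_001347258, with 9.18 FPKM. In the count table the 130 exon bases found only in NM_001110498 had 17, 0 and 25 counts across control replicates against 20, 23 and 23 across shCTCF replicates, and the 128 exon bases found only in NM_010509 had 12, 4 and 10 against 21, 17 and 26 counts. These counts of the forms differ far less than their FPKM. As counted, without scaling, those of NM_001110498 overlapped between the groups and those of NM_010509 did not. On FPKM, in contrast, most of the rise lay in NM_001110498, with means of 80.5 FPKM in the controls and 123.6 FPKM in the shCTCF samples. The division of Ifnar2 and of its rise between its forms is therefore uncertain.

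Of the 3 accessions of Irf7 (mm9 chromosome 7, 148449082 to 148452323), NM_016850 had 29.2, 23.8 and 19.04 FPKM in the shCTCF samples and NM_001252601 had 21.7, 15.4 and 18.4 FPKM. The remaining one, NM_001252600, had 0 FPKM in shCTCF replicate 1 and 10.3 and 9.94 FPKM in the others, while the sum over all 3 differed little between these samples. For Irf9 (mm9 chromosome 14, 56222822 to 56228867), NM_001159418 had 2.72, 6.48 and 3.53 FPKM in the controls and 8.21, 8.74 and 9.39 FPKM in the shCTCF samples. Its other expressed accession, NM_008394, had 2.92, 0 and 0.698 FPKM in the controls and 7.18, 7.27 and 7.19 FPKM in the shCTCF samples. For both forms of Irf9 the groups did not overlap, although NM_008394 and all accessions of Irf7 have no exon base of their own.

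On FPKM the rise of Socs1 (mm9 chromosome 16, 10783902 to 10785629) was given to 1 of its 2 accessions. NM_009896 had 29.6, 38.01 and 34.3 FPKM in the controls and 108.8, 82.5 and 92.7 FPKM in the shCTCF samples. NM_001271603 had 8.79, 13.7 and 8.51 FPKM in the controls and 12.8, 10.1 and 9.46 FPKM in the shCTCF samples, and these overlapped. The counts of Socs1 given above all fell in the 120 exon bases found only in NM_001271603, and there the shCTCF samples were above every control after TMM normalization (though not with library size alone), so the division of Socs1 between its accessions is uncertain as well. All FPKM of Irf1 (mm9 chromosome 11, 53583516 to 53591876) were given to NM_008390 of its 3 accessions, which has no exon base of its own and 0 counts in all samples. The few counts of Irf1 lay in its other accessions, with 1, 0 and 7 across control replicates against 2, 2 and 2 across shCTCF replicates. The rise of Irf1 was therefore read on FPKM only. Stat2 (chromosome 10, 127707554 to 127729909), Jak1 (chromosome 4, 100824579 to 100937887) and Ifnar1 (chromosome 16, 91485460 to 91510767) each had 1 accession, and Tyk2 (chromosome 9, 20908512 to 20935719) had 2, of which NM_001205312 was given 4.93 FPKM in control replicate 2 and 0 in all other samples.

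**Figure D3:**
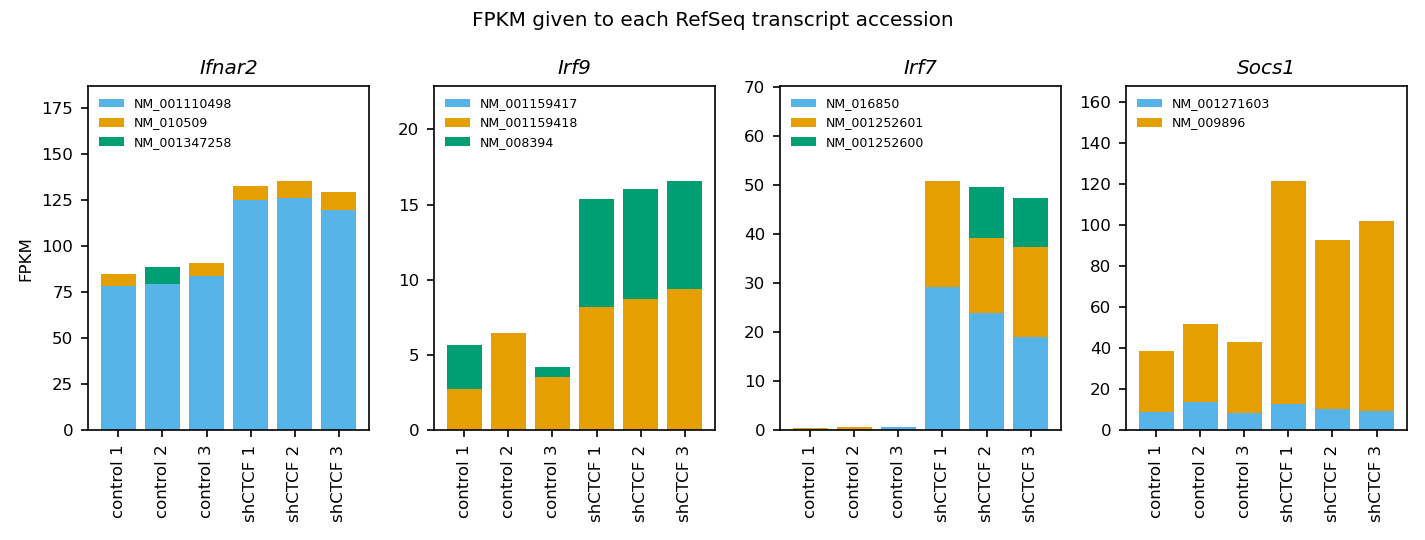
Stacked bars of the FPKM given to each RefSeq accession of Ifnar2, Irf9, Irf7 and Socs1 in each of the 6 samples, on linear axes from 0. NM_001110498 makes up at least 89.6% of Ifnar2 in every sample, and the rise of Socs1 on FPKM lies in NM_009896.

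Ifnar2 and Ifnar1 lie in a cluster of cytokine receptor genes on mm9 chromosome 16, together with Il10rb and Ifngr2, within 191 kb and all on the + strand. Il10rb encodes a shared chain of the receptors for interleukin-10 and interferon-lambda, and Ifngr2 a chain of the interferon-gamma receptor. From the start of Ifnar2, Il10rb begins at 33.5 kb, Ifnar1 at 112.4 kb and Ifngr2 at 174.3 kb. Il10rb had 10.7, 11.1 and 10.8 FPKM in the controls and 18.7, 18.5 and 18.6 FPKM in the shCTCF samples. Ifngr2 had 15.7, 18.5 and 16.6 FPKM in the controls and 89.5, 84.9 and 79.6 FPKM in the shCTCF samples. The log2 fold change was 0.72 for Il10rb and 2.26 for Ifngr2 (limma adjusted p 4.02e-05 and 3.42e-07), and both were above every control in all 3 shCTCF samples. Ifnar1, between these, had a log2 fold change of 0.06, and its confidence interval of -0.13 to 0.24 ended below that of Ifnar2, which began at 0.45. On counts the log2 fold change of Ifngr2 was 2.52 and that of Il10rb 0.99 (edgeR adjusted p 2.4e-10 and 1.91e-06). That of Ifnar2, with few counts, was 0.89 (edgeR adjusted p 0.00693). Ifnar1 was past the threshold on counts with 0.23 (edgeR adjusted p 0.0214), a call that depended on scaling. The difference between neighbours was given no test of its own.

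**Figure D4:**
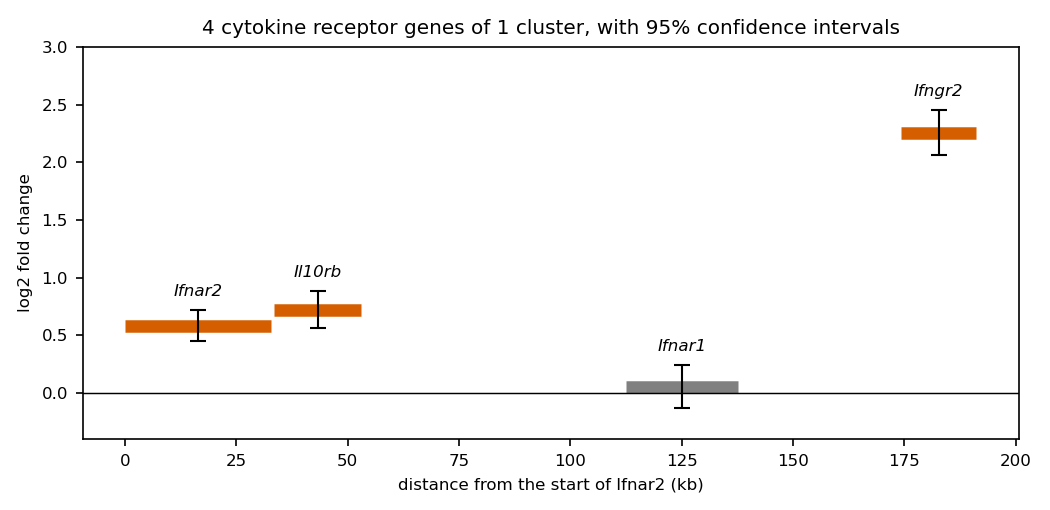
Difference in log2(FPKM + 1) (shCTCF over control, bars at the height of the value, with 95% confidence intervals) of 4 receptor genes against their distance in kb from the start of Ifnar2. Ifnar1, in grey, was not past the threshold, and Ifngr2 was highest with 2.26.

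Other genes of the pathway were described from lists chosen with earlier results of these data known. Of 72 such genes, 44 passed the filter on low values, and of these 28 were higher, 8 were lower and 8 did not pass the test in limma. These counts stand beside 73% of all genes tested past the threshold, 28.8% higher and 44.2% lower, and genes that are low in the controls entered the 44 only through the shCTCF group. All 21 ligands were among the genes under the filter.

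Of 5 other receptor chains and kinases tested, 3 were higher and 1 was lower, so that 4 of 5 were past the threshold beside 73% of all genes tested. Jak2, the kinase of the interferon-gamma receptor and of many cytokine receptors, had 15.3, 13.3 and 15.8 FPKM in the controls and 51.7, 52.5 and 53.6 FPKM in the shCTCF samples (log2 fold change 1.77, limma adjusted p 9.15e-07). Ifngr1, the ligand-binding chain of the interferon-gamma receptor, fell by 0.66 on the log2 scale (adjusted p 0.000772), opposite to its partner Ifngr2. Jak3 had a log2 fold change of 0.24 and an adjusted p of 0.0515. On counts Jak2 had at most 1 in any sample and was not tested.

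Other STATs changed in both directions. Stat3, which transmits interleukin-6 and LIF signals, rose by 0.81 on the log2 scale (limma adjusted p 6.62e-05). Stat5a and Stat5b, which act downstream of growth factor and hematopoietic cytokine receptors, fell. Stat5a had 61.7, 65.3 and 59.3 FPKM in the controls and 28.5, 29.2 and 26.3 FPKM in the shCTCF samples (log2 fold change -1.12, adjusted p 4.98e-06), and Stat5b went from 70.2 ± 5.84 to 28.3 ± 2.66 FPKM (SD, n = 3 each; log2 fold change -1.28, adjusted p 8.92e-06). Stat6 fell as well. On counts Stat5b and Stat6 were lower too (log2 fold change -1.31 and -0.37, edgeR adjusted p 6.19e-05 and 0.00117). Stat5a had 4, 0 and 2 counts across control replicates against 4, 5 and 4 across shCTCF replicates, and Stat3 had 0 in all samples, so neither was tested there.

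Among the other IRFs 3 were tested. Irf3, the factor that is activated by nucleic acid sensors without new synthesis, fell from 21.1 ± 3.35 to 10.4 ± 0.89 FPKM (SD, n = 3 each; log2 fold change -0.95, limma adjusted p 0.000207). Irf5 and Irf2 rose by 0.84 and 0.78 on the log2 scale (adjusted p 0.000166 and 2.64e-05). Irf4 and Irf8 stayed under 1 FPKM in every sample. Irf2, Irf3 and Irf5 had too few counts to be tested on counts.

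Of 16 negative regulators all were tested, and 7 were higher, 2 were lower and 7 did not pass. The 9 of 16 past the threshold, in either direction, are a smaller share than the 73% of all genes tested. By direction, 7 of 16 higher stand beside 28.8% of all genes tested and 2 of 16 lower beside 44.2%. At least 2-fold higher were 5 of 16, beside 11.3% of all genes tested. Usp18, which blocks the receptor at IFNAR2, had 0.472, 0 and 0.589 FPKM in the controls and 104.2, 96.8 and 93.9 FPKM in the shCTCF samples (log2 fold change 6.22, limma adjusted p 8.89e-08). It passed the filter only through the shCTCF group. Socs3 had 11.6, 14.98 and 12.2 FPKM in the controls and 176.9, 169.8 and 169.6 FPKM in the shCTCF samples (log2 fold change 3.64, adjusted p 7.92e-08). Cish and Socs2, known as targets of STAT5, rose by 2.15 and 1.91 on the log2 scale (adjusted p 1.8e-07 and 6.1e-06). The phosphatase gene Ptpn6 and the gene Pias2 had log2 fold changes of -0.67 and -0.55 on FPKM (limma adjusted p 2.37e-05 and 0.00276). On counts Ptpn6 did not pass the test, with -0.28 and overlapping groups (edgeR adjusted p 0.297), and Pias2 had 0 counts in all samples.

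All 11 known ISGF3 target genes passed the filter and were higher, beside 28.8% of all genes tested. Of these, 7 (Mx1, Mx2, Oasl2, Ifit1, Ifit3, Rsad2 and Ifi44) were under 1 FPKM in every control and passed the filter only through the shCTCF group, so for them passing and being higher are tied. Their summed level went from 34.7 to 40.1 FPKM in the controls to 1049 to 1096 FPKM in the shCTCF samples. Isg15, a ubiquitin-like protein, had 5.41, 4.30 and 2.64 FPKM in the controls and 266, 278 and 275 FPKM in the shCTCF samples. Mx2, Ifit1 and Ifit3, all of them antiviral effectors, were under 1 FPKM in every control and had 87.1 ± 2.18, 112 ± 8.75 and 57.3 ± 6.43 FPKM in the shCTCF group (SD, n = 3 each). On counts Mx2 had 0 in all samples and was not tested. The smallest log2 fold change of this list was 0.69, for Cxcl10, with means of 1.01 FPKM in the controls and 2.21 FPKM in the shCTCF samples. The added 1 FPKM makes this value too small. On counts it was 1.54 (edgeR adjusted p 0.00048). Of 6 known targets of STAT dimers or IRF1, 4 were tested. Gbp2, Icam1 and Cd274 were higher, with log2 fold changes of 6.59, 2.80 and 2.10, and Nos2 was lower, with -1.49 (limma adjusted p between 1.17e-08 and 1.83e-05). All 4 passed the threshold, beside 73% of all genes tested. Gbp2 passed the filter only through the shCTCF group and Nos2 only through the controls, so for both passing and the direction are tied. The added 1 FPKM also makes the log2 fold changes of both genes too small in size. Ciita, known as an IRF1 target, stayed under 1 FPKM, with at most 0.207.

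**Figure D5:**
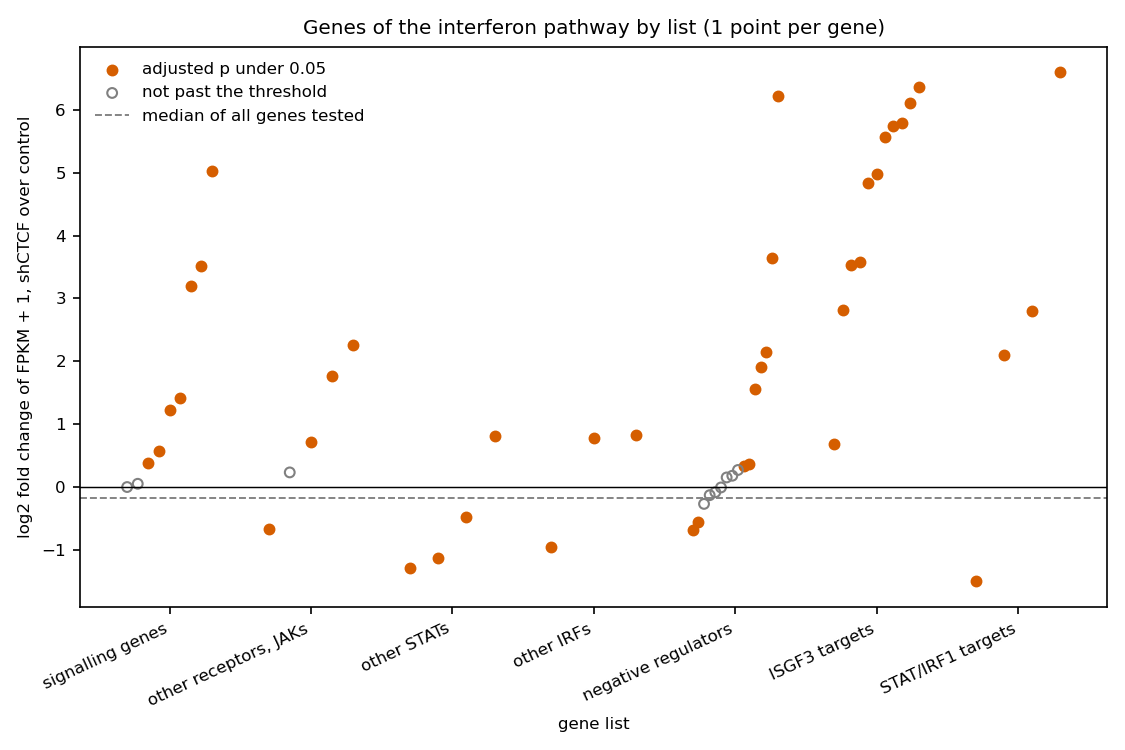
Difference in log2(FPKM + 1) of the tested genes of the pathway lists that are reported here (1 point per gene, shCTCF over control), with filled points for an adjusted p under 0.05 in limma, open points for the others and a dashed line at the median of all genes tested. All 11 ISGF3 targets lie above 0, and the other STATs lie on both sides.

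The genes most like Stat2, Irf9 and Irf7 in their pattern were sought over the 6 samples, by the distance between values of log2(FPKM + 1) after the control mean was subtracted. For Stat2 these were Lama5 (distance 0.17), Gbp6 (0.19) and Slc31a2 (0.268). Those of Irf7 were Gbp4, Clec10a and Fam118b, all at 0.24. Irf9 was nearest to Plod3 (0.207), Midn (0.227) and Ntmt1 (0.236). With 2 groups of 3 samples this distance mainly compares the size of the change in log2(FPKM + 1). The added 1 FPKM shrinks this change for genes low in the controls, so genes near each other here can differ in their ratio of FPKM. Gbp6, Gbp4 and Fam118b were under 1 FPKM in every control and passed the filter only through the shCTCF group.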

How the data were processed

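RNA-seq libraries (stranded mRNA kit) of 3 control and 3 shCTCF samples were trimmed, and the authors aligned the reads with HISAT2 to mouse build mm9. The deposited FPKM values were calculated by the authors with Cufflinks 2.2.1 and RefSeq annotation, with depth normalized. The authors obtained the deposited counts per transcript accession from featureCounts 1.6.2, without strand and without normalization, and per the file headers fragments overlapping several accessions were not counted. No value column lacked a sample (0 columns).

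Accessions were named with a RefSeq gene table (GRCm38.p6, names only), with symbols for 41680 of 41876 FPKM rows and 41181 of 41388 count accessions; unmatched accessions held at most 0.622% of counts. Values were summed per symbol. For limma, log2(FPKM + 1) was used for genes whose mean reached 1 FPKM (limma 3.58.1, trend), and counts were tested with edgeR 4.0.16 (TMM, filterByExpr, quasi-likelihood), without a block, R 4.3.3. P-values were two-sided with Benjamini-Hochberg adjustment, threshold 0.05. An exact permutation test of 3 against 3 samples cannot go below p = 0.1 and was not used. Alternatives were other pseudocounts (0.1, 0.01), filters, scalings, DESeq2 1.42.0, the highest row per symbol, the replicate block and the omission of each replicate. Both fits were first tested on simulated data. Coordinates of genes are mm9 as in the count table, and promoters are GRCm38.p6, with no conversion between them.

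Members and lists were chosen with earlier results of these data known. The genes named were the 9 members, Ctcf, of each pathway list at most the 4 largest changes among genes past the threshold without overlap of the groups, and the 3 genes nearest in pattern to Stat2, Irf9 and Irf7; other genes named were chosen after their values were seen. Some genes covered by this rule are not reported here. All replicate pairs differed by more than counting noise (chi-square per degree of freedom 2.07 to 8.17 within groups, 93.02 to 212.6 between them).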

Additional observations from a re-analysis of the deposited data

How the results depend on the processing

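Of 287 comparisons of a result with an alternative, 278 stayed on the same side of the threshold in the same direction or, for counts of genes, within 1.5 times the value in the report. The number of members past the threshold on FPKM was 7 under all alternatives except scaling to the same median, which gave 8 with Ifnar1, and it lay between 4 and 5 on counts. With one replicate left out it was 7 in every fit on FPKM and between 4 and 5 on counts. Tyk2, which was never past the threshold, had log2 fold changes between -0.047 and 0.072 with one replicate left out, with a changed sign without control replicate 1 or 3 or shCTCF replicate 1. The cause was not tested. With the row of highest mean per symbol Tyk2 was at 0.29 (adjusted p 0.234). Irf7 varied most in size, from 4.31 to 6.52. The replicate numbers of the labels were not shown to pair the samples, since deviations of same-numbered samples correlated at -0.041, 0.018 and 0.0395 across genes. With the replicate block 7136 genes on FPKM and 4889 on counts passed (7280 and 5072 without it), with 7 and 5 members, and no call of a member changed. With other scalings the median over all genes tested went from -0.17 to -0.0089 on FPKM (same median, log2 scale) and from -0.02 to -0.19 on counts (library size only, with 41.5% of calls higher in place of 50.3%), shifts larger than the changes of Ifnar1 (0.06) and Tyk2 (0.0034) on FPKM. Ifnar2 and Socs1 had fewer than 50 counts per sample, which limits their precision on counts.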

Other observations

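Ratios of FPKM within a sample were also computed for related genes. The ratio of Irf1 to Irf2, known as activator and repressor at the same elements, ran at 0.303, 0.329 and 0.346 over the control replicates against 2.69, 2.56 and 2.13 over the shCTCF replicates. The ratio of Irf7 to Irf3 ran at 0.0195, 0.0247 and 0.0328 over the control replicates against 4.46, 5.001 and 4.82 over the shCTCF replicates. For the inhibitors, Socs1 exceeded Socs3 in the controls, with ratios of 3.30, 3.45 and 3.52, and was below it in the shCTCF samples, with 0.688, 0.545 and 0.603. The ratio of Ifnar2 to Ifnar1 ran at 9.61, 9.82 and 10.6 over the control replicates against 14.3, 15.5 and 13.4 over the shCTCF replicates. Its size depends on the uncertain division of Ifnar2 between its forms. These pairs were chosen after their values were seen and were given no test.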
